A study of Mus musculus with 10 samples.

Results

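The 9 genes described here encode parts of 2 linked protease systems, plasminogen activation and blood coagulation. They are F10, F3 and F13a1 (clotting), Thbd and Tfpi (anticoagulant), and Plau, Plat, Plaur and Serpinb2 (plasminogen activation). For each gene the deposited table was searched for probe sets that the platform annotation assigns to that gene alone, and the probe set with the highest mean over all 10 arrays was taken. All 9 genes had such a probe set, out of 18128 genes in the table. The set was put together because F10 and Plau had lower values with maslinic acid in an earlier look at the same contrast. Their differences are therefore described without a test. The intervals printed for F10 and Plau, in every probe set, do not allow for that choice and are too favourable to a difference.

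Tissue factor, the product of F3, starts coagulation on the surface of damaged or inflamed tissue and leads to activation of factor X, which in turn makes thrombin and fibrin. Urokinase (Plau) and tissue plasminogen activator (Plat) turn plasminogen into plasmin, the protease that dissolves fibrin and also acts on matrix proteins. Fibrin deposits and urokinase activity are well known in inflamed joints.

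The samples were synovium of the left hind leg from 10 male DBA/1J mice, aged 8 weeks per the labels and bought at 5 weeks. All 10 had collagen antibody-induced arthritis (CAIA), brought on by 1 mg of a type II collagen antibody (day 8) followed by 25 µg of bacterial lipopolysaccharide (day 11) ahead of tissue collection on day 12. The vehicle group (n = 5) was given corn oil by mouth and the maslinic acid group (n = 5) maslinic acid, an olive triterpene, in corn oil at 200 mg per kg of body weight daily. The 5 mice of each group were picked from larger groups, by a criterion the design text does not give, and untreated mice are not part of the comparison.

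One Affymetrix array was run per mouse, and the precision is limited by the number of arrays. Values of probe sets are called scores here, had a median of 6.74, and are on an unknown scale. Scores have 6 decimals and 93.5% of probe sets had a range under 0.001 over the arrays. Values are therefore given in steps of the last decimal above the gene's lowest array, and differences as Hedges' g (treated minus vehicle mean, divided by the pooled within-group SD) with a 95% confidence interval. Across all genes 0% had an adjusted p under 0.05 in limma (0 of 18038 with a p), while 4.24% were higher and 4.36% lower with maslinic acid at an unadjusted p under 0.05. The lining marker Prg4 (lubricin) had a mean score of 11.5, but the lowest lining and fibroblast marker, Htra4 (6.49), lay below the median probe set. The highest markers of muscle (Acta1, 13.3) and bone (Acp5, 12.4) lay far above that median. The lowest markers of these 2 tissues were Myh1 (9.25) and Sp7 (7.79). Liver markers ran from 6.11 (Alb), below the median probe set, to 6.89 (Ttr), above it. These levels do not settle the make-up of the tissue. The quality weights that limma gave to vehicle replicates 3 (0.401) and 5 (0.309) were the lowest, against 0.809 to 2.25 for the other 8 arrays, and values without both are given where they matter. In such bulk tissue, fewer cells of a type and less RNA per cell cannot be told apart.

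Upstream sequences are shown for F10, the gene with the largest Hedges' g in size among the 9. They are also shown for F3, whose product starts the cascade that factor X belongs to. Those of Plaur and Serpinb2, the receptor and an inhibitor of urokinase, follow. RefSeq (GRCm38.p6) promoters matched 6 of the 9 genes: F10, F3, F13a1, Tfpi, Plaur and Serpinb2. Each run holds the 250 bases before an annotated start, 5′ to 3′ on the gene's strand. The F10 and F3 windows end where the annotated span of the gene begins. Those of Plaur and Serpinb2 lie inside the annotated spans, which begin at 24460937 and 107500892, and so precede internal starts. Capitals mark matches, on either strand, to the AP-1 letters TGANTCA or the TATA box letters TATAAA, which do not overlap each other.
F10, chr8:13037058-13037307, + strand: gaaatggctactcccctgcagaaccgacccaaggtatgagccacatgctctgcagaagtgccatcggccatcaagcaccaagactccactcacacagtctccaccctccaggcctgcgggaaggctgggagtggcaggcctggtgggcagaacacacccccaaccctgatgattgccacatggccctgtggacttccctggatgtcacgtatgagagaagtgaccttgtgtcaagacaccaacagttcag
F3, chr3:121723287-121723536, + strand: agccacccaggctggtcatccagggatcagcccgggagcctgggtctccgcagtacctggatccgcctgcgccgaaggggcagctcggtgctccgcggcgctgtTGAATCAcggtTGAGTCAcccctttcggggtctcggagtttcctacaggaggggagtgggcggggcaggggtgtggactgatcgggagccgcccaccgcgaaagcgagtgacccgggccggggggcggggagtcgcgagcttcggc
Plaur, chr7:24462233-24462482, + strand: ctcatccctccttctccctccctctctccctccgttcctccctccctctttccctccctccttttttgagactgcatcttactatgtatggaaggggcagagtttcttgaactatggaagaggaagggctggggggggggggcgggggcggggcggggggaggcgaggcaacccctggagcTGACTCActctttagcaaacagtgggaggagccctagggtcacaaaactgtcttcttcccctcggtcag
Serpinb2, chr1:107511173-107511422, + strand: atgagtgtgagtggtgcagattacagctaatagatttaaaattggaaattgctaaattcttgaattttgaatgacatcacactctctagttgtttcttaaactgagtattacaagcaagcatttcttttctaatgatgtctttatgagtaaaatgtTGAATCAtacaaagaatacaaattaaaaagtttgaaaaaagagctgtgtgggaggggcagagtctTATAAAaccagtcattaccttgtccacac
The F10 window held neither motif. F3 held TGAATCA and TGAGTCA, Plaur held TGACTCA, and Serpinb2 held TGAATCA and a TATA box. The AP-1 letters were also in the window of a second Serpinb2 start, with the TATA letters. F13a1 and Tfpi have 2 starts each, and no window of either held the AP-1 letters. The TATA letters were in 1 window of Tfpi and in none of F13a1. Among all 32851 promoter windows of this length, 6.75% held the AP-1 letters and 12.4% the TATA letters. A match describes the letters in the window and is not a site.

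F10 (coagulation factor X, the protease that converts prothrombin to thrombin) had lower scores with maslinic acid in every array. The 5 vehicle arrays lay 268, 254, 317, 248 and 177 steps above the lowest array, whose score was 8.1352. The 5 maslinic acid arrays lay at 159, 60, 0, 106 and 69 steps. The groups did not overlap, the highest treated array being 18 steps below vehicle replicate 5. Means were 253 ± 50.3 steps in vehicle and 78.8 ± 58.8 steps in maslinic acid mice (SD, n = 5 each), a g of -2.87 (95% CI -4.62 to -1.06). Among all 18128 genes, 0.734% had groups that did not overlap with lower values in the treated mice. F10 and Plau were the 2 members that did, and nothing is read from that count because the members were chosen on this contrast.

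Another 2 probe sets named F10 alone, and in both every treated array lay below every vehicle array. The first had vehicle arrays at 67, 83, 129, 66 and 62 steps and treated arrays at 48, 45, 0, 47 and 53 steps (g = -1.55, 95% CI -2.86 to -0.17). The second had vehicle arrays at 52, 36, 39, 29 and 27 steps and treated arrays at 21, 11, 0, 20 and 18 steps (g = -2.18, -3.68 to -0.61). Maslinic acid replicate 3 was the lowest array in all 3 probe sets. These probe sets read the same RNA samples, so they bear on the measurement of F10 and not on the number of mice. The g was smaller in size when arrays were rescaled, at -1.42 after quantile normalization and -0.43 with each array centred on its median over the genes. Centring subtracts 1 value per array from all genes. With it 7.29% of all genes had a higher mean in treated mice, against 48.1% as deposited.

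Plau (urokinase) also had lower scores in every treated array, but on a far finer scale. The vehicle arrays lay 4, 3, 4, 3 and 7 steps above the lowest array and the treated arrays at 2, 2, 0, 1 and 0 steps. The groups did not overlap, and a single step of the sixth decimal separated them. Means were 4.2 ± 1.64 and 1.0 ± 1.0 steps (SD, n = 5 each; g = -2.13, 95% CI -3.61 to -0.57), with 6 distinct values over 10 arrays. For comparison, the medians of the arrays over all probe sets spanned 272 steps. Centring used other medians, those over the genes. The F10 differences between group means, -174, -42.8 and -22.6 steps in its 3 probe sets, were also smaller in size than that span. Quantile normalization left Plau at a g of -0.57 and centring at -0.20. Because Plau spanned only 7 steps, its centred g mostly follows the medians that were subtracted and does not bear on Plau.

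A further probe set of Plau, with 7 distinct values, did not separate the groups. Its vehicle arrays lay at 6, 10, 2, 6 and 5 steps and its treated arrays at 10, 7, 1, 2 and 0 steps (g = -0.44, 95% CI -1.57 to 0.71). The mean of both probe sets gave a g of -1.08. The 3 probe sets of F10 thus separated the groups alike, whereas those of Plau differed.

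**Figure D1:**
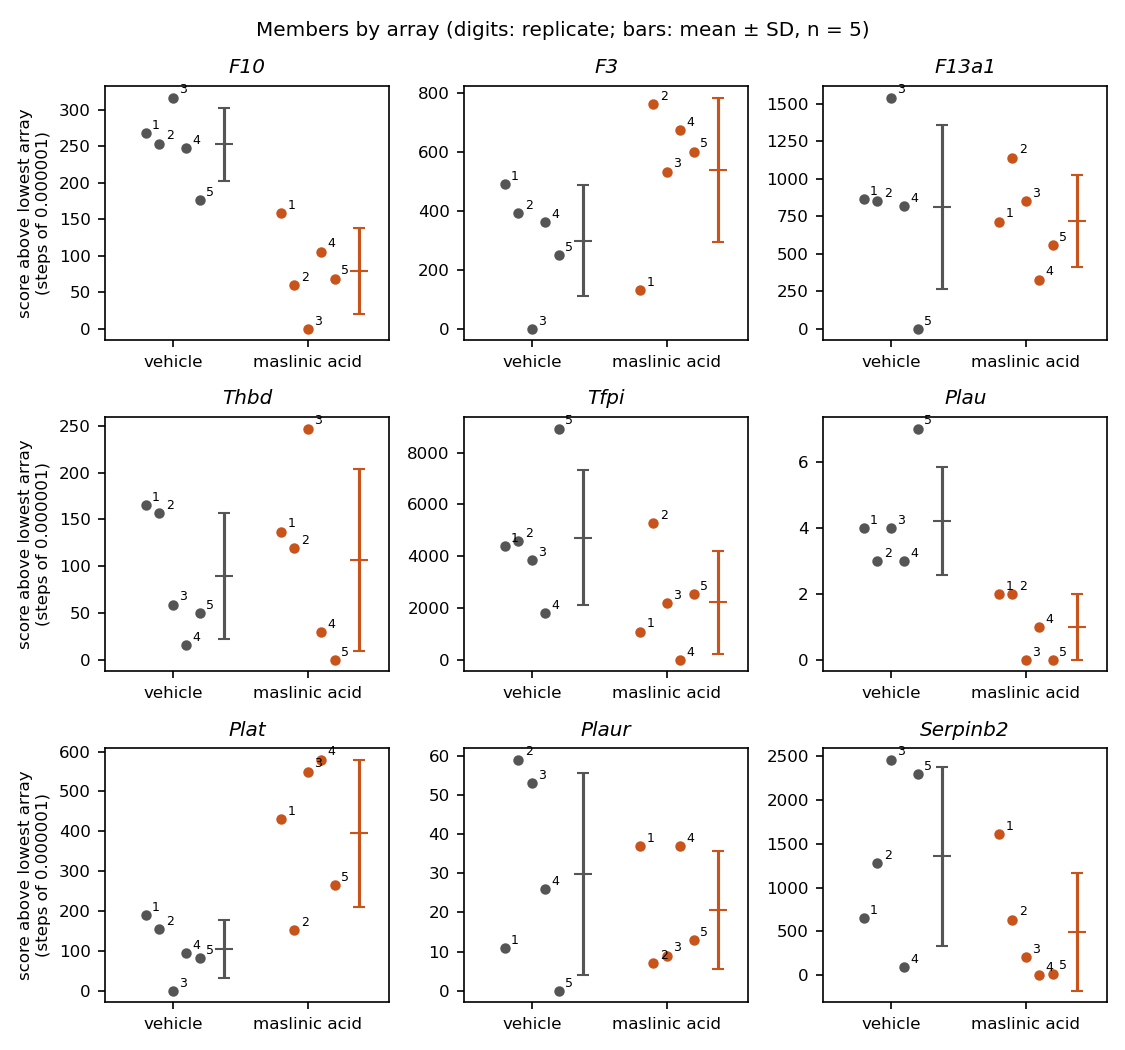
Deposited scores of the 9 genes in each array, in steps of 0.000001 above the gene's lowest array (vertical axes, which differ between panels), for 5 vehicle and 5 maslinic acid mice, with replicate numbers, means and SDs. The groups do not overlap in F10 (vehicle 177 to 317 steps, maslinic acid 0 to 159) and Plau (3 to 7 against 0 to 2), and they overlap in the other 7.

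**Figure D2:**
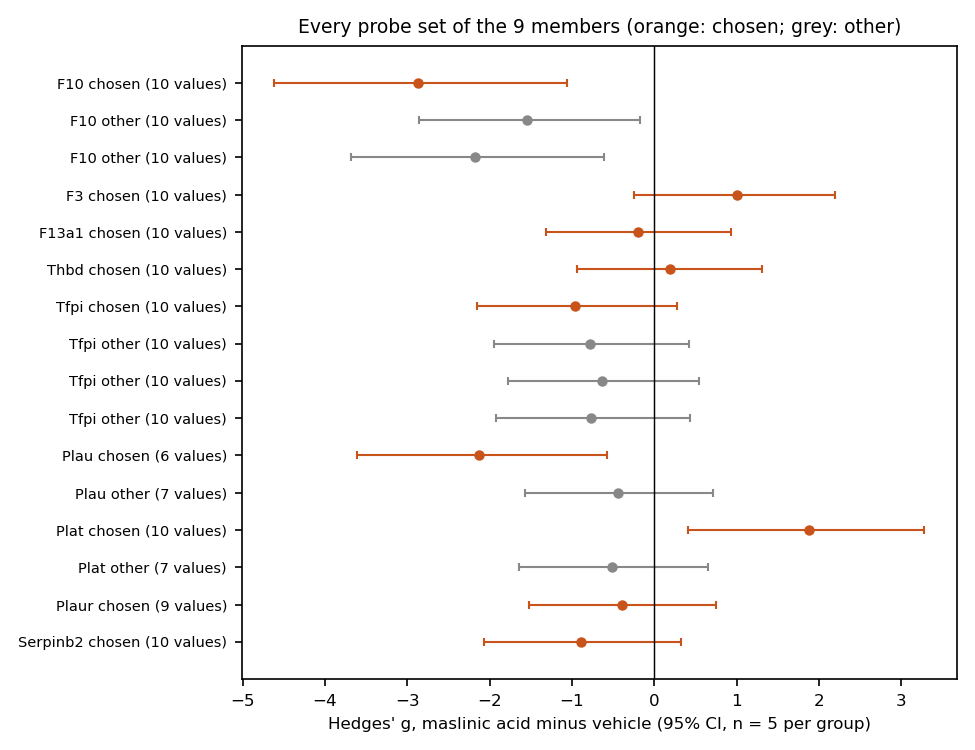
Hedges' g with its 95% confidence interval for all 16 probe sets that name 1 of the 9 genes alone (n = 5 per group), chosen probe sets in orange and others in grey. The 3 F10 probe sets lie between -2.87 and -1.55, while the other probe sets of Plau and Plat lie nearer 0 than the chosen ones.

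Of the remaining plasminogen genes none passed the test. Plat, the second activator of plasminogen, had a higher mean in the treated mice. Its vehicle arrays lay at 191, 154, 0, 95 and 83 steps and its treated arrays at 430, 152, 550, 580 and 265 steps. All treated arrays but replicate 2 were above all vehicle arrays. The means were 105 ± 73.2 and 395 ± 184 steps (SD, n = 5 each), a g of 1.88 (95% CI 0.40 to 3.28), which did not pass over all genes (limma adjusted p = 0.522). It was the 1 gene of the 7 other members with an unadjusted p under 0.05 (14.3%), where 4.24% of all genes were higher at such a p. Plat did not pass in any alternative tried (limma adjusted p 0.361 to 0.900). Centring left its g at 0.21, and the difference was largest without maslinic acid replicate 2 (2.87). A second Plat probe set, with 7 distinct values, had its mean on the other side (g = -0.52, -1.65 to 0.65).

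Plaur, the urokinase receptor, showed no detectable difference. Vehicle arrays lay at 11, 59, 53, 26 and 0 steps and treated arrays at 37, 7, 9, 37 and 13 steps, with full overlap (g = -0.39, 95% CI -1.52 to 0.75; limma adjusted p = 0.827). The interval leaves room for differences of either sign. Serpinb2 encodes plasminogen activator inhibitor 2, which is made by activated macrophages. Its vehicle arrays lay at 651, 1280, 2463, 88 and 2295 steps and its treated arrays at 1611, 634, 207, 0 and 17 steps. Vehicle replicates 3 and 5 were the 2 highest arrays of all. The g was -0.90 (-2.07 to 0.33; limma adjusted p = 0.645), and it was -0.24 without those 2 arrays.

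Among the clotting genes, F3 had a higher mean in treated mice. The vehicle arrays lay at 492, 391, 0, 362 and 251 steps and the treated arrays at 131, 762, 533, 673 and 601 steps. Of the treated arrays, 4 lay above all vehicle arrays and replicate 1 lay among them. The g was 0.999 (95% CI -0.25 to 2.19; limma adjusted p = 0.621), and it reached 1.95 without maslinic acid replicate 1 and was 0.54 without vehicle replicates 3 and 5. The gene for the A subunit of factor XIII, F13a1, encodes the enzyme that crosslinks fibrin and is also found in macrophages. Its vehicle arrays lay at 864, 848, 1540, 816 and 0 steps and its treated arrays at 714, 1140, 850, 328 and 559 steps. The treated range fell wholly inside the vehicle range, and no difference was detectable (g = -0.19, -1.31 to 0.93; limma adjusted p = 0.920). Leaving out vehicle replicate 3 turned its sign (0.21), as did leaving out maslinic acid replicate 4 (0.0043).

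The anticoagulant genes did not separate the groups either. Thbd encodes thrombomodulin, the endothelial receptor that turns thrombin towards activating protein C. Its vehicle arrays lay at 165, 157, 59, 16 and 50 steps and its treated arrays at 137, 119, 247, 30 and 0 steps, the lowest and the highest array both being treated ones. The g was 0.19 (95% CI -0.94 to 1.30; limma adjusted p = 0.925), and the sign turned in 6 of 20 alternatives. Tfpi encodes tissue factor pathway inhibitor, which blocks tissue factor and factor Xa. Vehicle arrays lay at 4379, 4590, 3849, 1791 and 8929 steps and treated arrays at 1089, 5296, 2201, 0 and 2541 steps. Apart from replicate 2 the treated arrays lay below vehicle replicates 1, 2, 3 and 5 (g = -0.97, -2.16 to 0.27; limma adjusted p = 0.626). The other 3 probe sets of Tfpi had their means on the same side, with g between -0.78 and -0.64. Vehicle replicate 5 was the highest array in all 4.

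**Figure D3:**
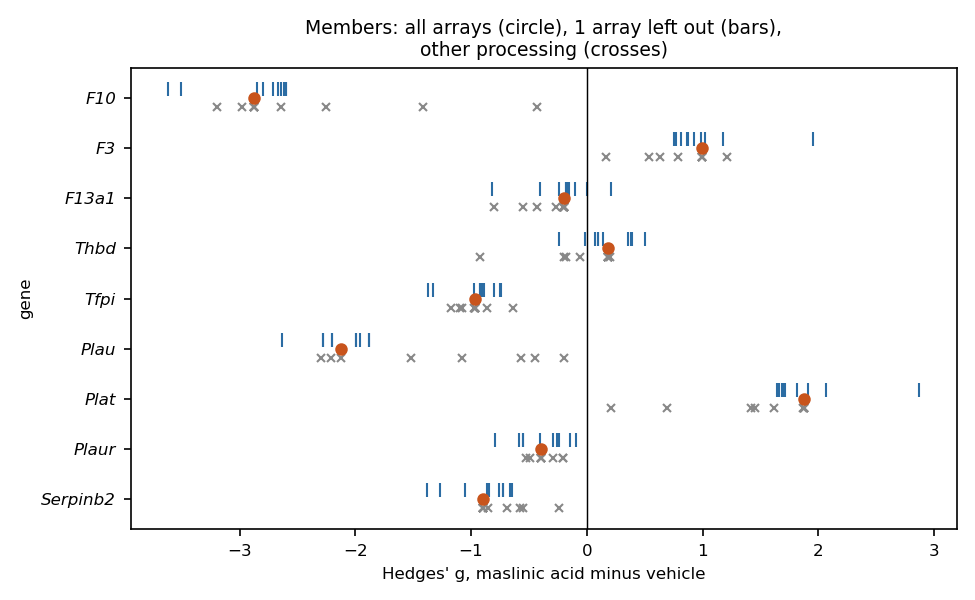
Hedges' g of each gene (horizontal axis) with all arrays (circles), with 1 array left out (bars) and under the other processing choices (crosses). F10 stays between -3.62 and -2.60 when single arrays are left out and comes nearest to 0 with centred arrays (-0.43); F13a1 and Thbd lie on both sides of 0.

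The other genes of both systems were counted from fixed lists, to see how they lay beside F10 and Plau. Of 42 measured genes, 20 had a higher mean with maslinic acid, 21 a lower one and 1 an equal one, where 48.1% of all genes had a higher mean. At an unadjusted p under 0.05, 1 was higher (2.38%, against 4.24% of all genes) and 0 were lower (against 4.36%), and 0 passed after adjustment in limma. None of the 42 had groups that did not overlap, which 0.645% of all genes did with higher and 0.734% with lower treated values. The median g was -0.03, against 0.00 over all genes. The number with a higher mean was 12 of 42 after quantile normalization, where 30.7% of all genes had one, and 6 of 42 after centring, against 7.29% of all genes. It was 13 of 42 without vehicle replicates 3 and 5, against 47.0% of all genes. Of the 42, 10 had 5 or fewer distinct values, so that their differences rest on a few steps. Among the 7 other members, 3 had higher and 4 lower means, and 0 passed.

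The plasminogen list had 10 measured genes, 6 higher and 4 lower. Plasminogen itself, Plg, differed by at most 1 step between arrays. The lowest p-values were those of A2m, the protease inhibitor alpha-2-macroglobulin (g = 1.04, 95% CI -0.21 to 2.24), Lrp1, a receptor that clears protease-inhibitor complexes (0.89, -0.33 to 2.06), and Mrc2, a collagen uptake receptor that binds the urokinase receptor complex (0.80, -0.40 to 1.97). Their limma adjusted p-values were 0.609, 0.647 and 0.668. Lrp1 vehicle arrays lay at 12018, 8828, 98, 6970 and 0 steps and treated arrays at 11285, 6341, 17204, 7690 and 9203 steps. Vehicle replicates 3 and 5 alone lay below all treated arrays.

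Clotting factors and the proteins that process them split evenly, 7 higher and 7 lower of 14. Those of lowest p were Fga, the fibrinogen alpha chain (g = -0.82, 95% CI -1.98 to 0.39, with 7 distinct values), and Ggcx and Vkorc1, the carboxylase and the reductase of the vitamin K cycle that completes factor X and its relatives (0.69, -0.50 to 1.84, and 0.68, -0.50 to 1.83). In the contact pathway, whose factors can start clotting on surfaces, 1 of 4 was higher. F11 was at -0.88 (-2.06 to 0.34), Kng1 (kininogen) at 0.67 (-0.52 to 1.81) and F12 at -0.65 (-1.79 to 0.53), with 5, 10 and 4 distinct values. Among the protease-activated receptors, through which thrombin and other proteases signal to cells, F2rl2 was at -0.94 (-2.13 to 0.29), F2rl3 at -0.51 (-1.64 to 0.65) and F2r at 0.16 (-0.97 to 1.28).

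Of 11 anticoagulant genes 5 were higher, 5 lower and 1 equal. Procr encodes the endothelial protein C receptor, which works beside thrombomodulin. It was the 1 gene of the 42 with an unadjusted p under 0.05 (g = 1.30, 95% CI -0.01 to 2.55; limma adjusted p = 0.576). Its vehicle arrays lay at 9468, 5766, 0, 9978 and 5651 steps and its treated arrays at 10544, 12738, 11533, 11823 and 7263 steps. All treated arrays but replicate 5 lay above every vehicle array. Anxa5, the phospholipid-binding annexin A5, was at 1.08 (-0.18 to 2.29), and Adtrp, a regulator of Tfpi, at -0.77 (-1.93 to 0.43).

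**Figure D4:**
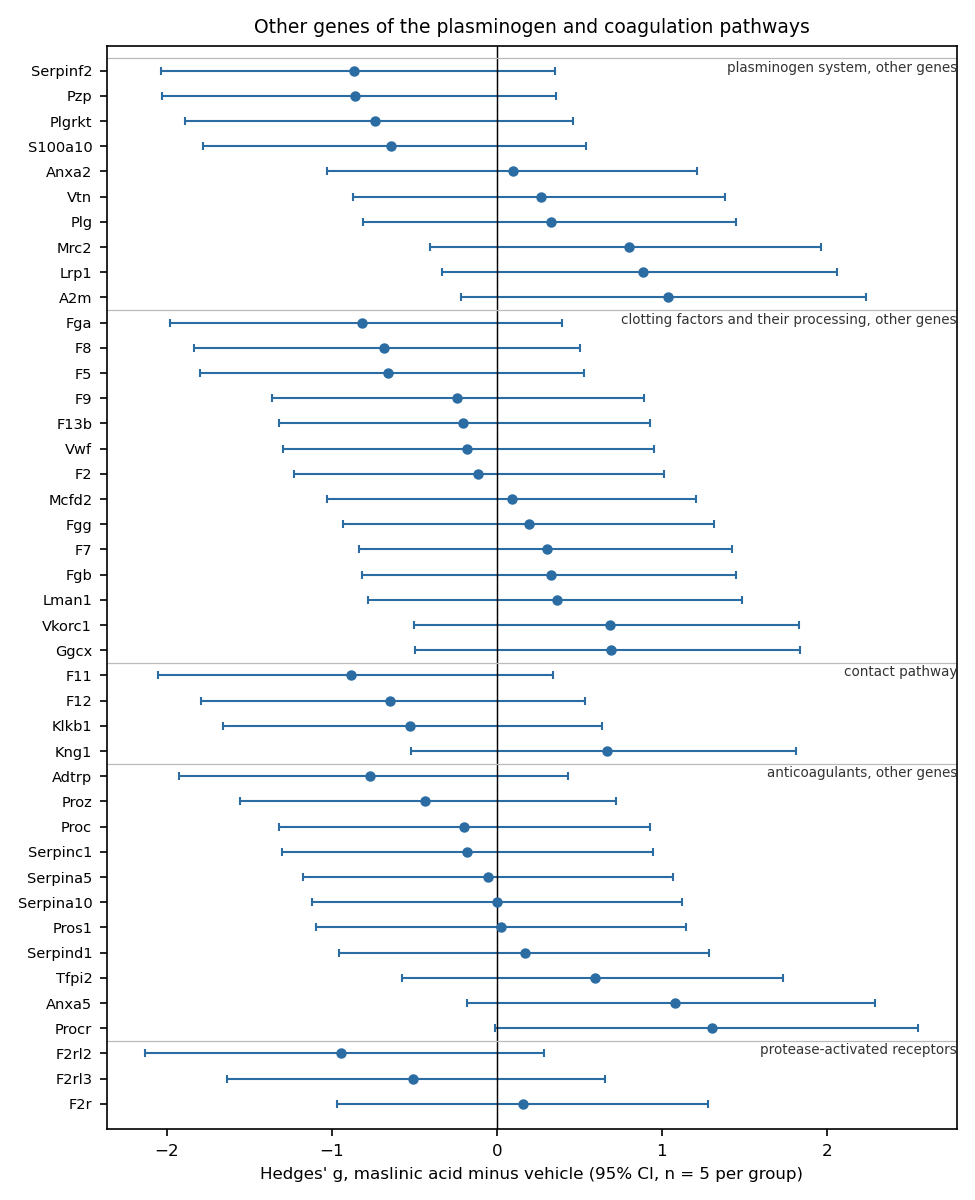
Hedges' g with its 95% confidence interval (horizontal axis, n = 5 per group) for the 42 other measured genes of the pathways, in 5 lists. All 42 intervals include 0, from F2rl2 at -0.94 to Procr at 1.30.

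Cell type markers were set beside these results, and their part in them was not tested. Over all genes 48.1% had a higher and 48.5% a lower mean, and 4.24% were higher and 4.36% lower at an unadjusted p under 0.05. No marker passed after adjustment in limma. Neutrophil markers had a lower mean with maslinic acid in 10 of 11 (90.9%), of which 3 (27.3%) had such a p. Their mean z-score ran from -0.36 to 1.15 in vehicle and from -0.64 to -0.10 in treated arrays, and their summed score from 127.274 to 127.285 and from 127.277 to 127.283. Without vehicle replicates 3 and 5, 9 of 11 were lower and 3 had such a p, in a setting added after the data were seen. Platelet markers had a lower mean in 7 of 7 (100%), with 2 (28.6%) at such a p, and without those 2 arrays in 7 of 7 with 0. Their z-score ran from -0.40 to 1.58 against -1.24 to 0.21, and their summed score from 66.0477 to 66.0536 and from 66.0459 to 66.0498. Monocyte and macrophage markers were lower in 8 of 13 (61.5%), with 2 (15.4%) at such a p, with and without those arrays. Their z-scores overlapped widely (-0.33 to 0.41 against -0.56 to 0.42), with summed scores from 115.454 to 115.478 and from 115.445 to 115.484.

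Endothelial cells make Plat, Thbd and Tfpi, and their markers had a higher mean in 8 of 8 (100%) with 0 at such a p. Vehicle replicates 3 and 5 decided this, with z-scores of -1.35 and -1.45 against 0.31 to 0.58 in the other vehicle arrays and 0.02 to 0.89 in the treated ones. Without them 3 of 8 were higher and 5 lower, of which 1 had such a p, and the vehicle mean of 0.43 lay above the treated mean of 0.30. The summed endothelial score ran from 64.735 to 64.7378 in vehicle and from 64.7371 to 64.7383 in treated arrays. Lining and fibroblast markers were higher in 10 of 10 (100%) with 1 (10.0%) at such a p, but in 5 of 10 with 0 without those arrays (z from -0.95 to 0.55 against -0.35 to 1.01). Markers of tissues around the synovium had higher means too, in 5 of 5 for bone with 2 (40.0%) at such a p, 4 of 4 for fat with 1 (25.0%), 8 of 8 for muscle with 0 and 6 of 6 for cartilage with 0. Without those arrays the same numbers were higher, with 0 at such a p in each of the 4 lists. Mast cell markers were split 3 and 3. Ms4a2, a chain of the IgE receptor named here after its value was seen, had a g of -2.22 with no overlap between groups. Of all genes 0.734% had no overlap in that direction, and so did 1 neutrophil marker. The rest of the mast cell list had g from -0.68 (Cpa3) to 0.35 (Tpsb2). Without those arrays 5 of 6 mast cell markers were lower. Liver markers, of the organ that makes most clotting factors, were higher in 3 of 6 and lower in 2, with 0 at such a p. No marker is at 0 on this scale, the lowest mean marker score being 6.11 (Alb).

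Whether the members rose and fell together from mouse to mouse was examined over all 36 pairs. None passed after adjustment over the pairs, while 8 had an unadjusted permutation p under 0.05 for r (100000 permutations, two-sided). The count was 5 for rho, 2 for r without vehicle replicates 3 and 5, and 2 for deviations from group means. Pairs that include F10, Plau or Plat also carry the group differences of these genes. By Pearson r the strongest was an inverse relation of F3 and Serpinb2, with r = -0.80 (permutation p = 0.00545, adjusted p = 0.169) and rho = -0.77 (permutation p = 0.0125, adjusted p = 0.150). By rho, F10 with Plau (0.81) and Plau with Plat (-0.77, permutation p = 0.0113, adjusted p = 0.150) came before it. The r of F3 and Serpinb2 was -0.80 without the 2 arrays of most extreme F3, -0.64 without vehicle replicates 3 and 5, and -0.74 for deviations from group means. F10 and Plau, whose group differences chose them, are described only: r was 0.66 and rho 0.81 over the 10 arrays, r was 0.54 without the 2 most extreme F10 arrays, and r was 0.90 without vehicle replicates 3 and 5. For deviations from group means, which leave the group difference out, the same pair had r = -0.12 (exact within-group permutation p = 0.739). On those deviations F10 was closest to Plaur (r = 0.71, exact within-group permutation p = 0.0210, adjusted p = 0.378), a pair whose pooled r was 0.54 (permutation p = 0.106, adjusted p = 0.342) with rho = 0.50 (permutation p = 0.146, adjusted p = 0.349) and 0.32 without the 2 most extreme F10 arrays.

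**Figure D5:**
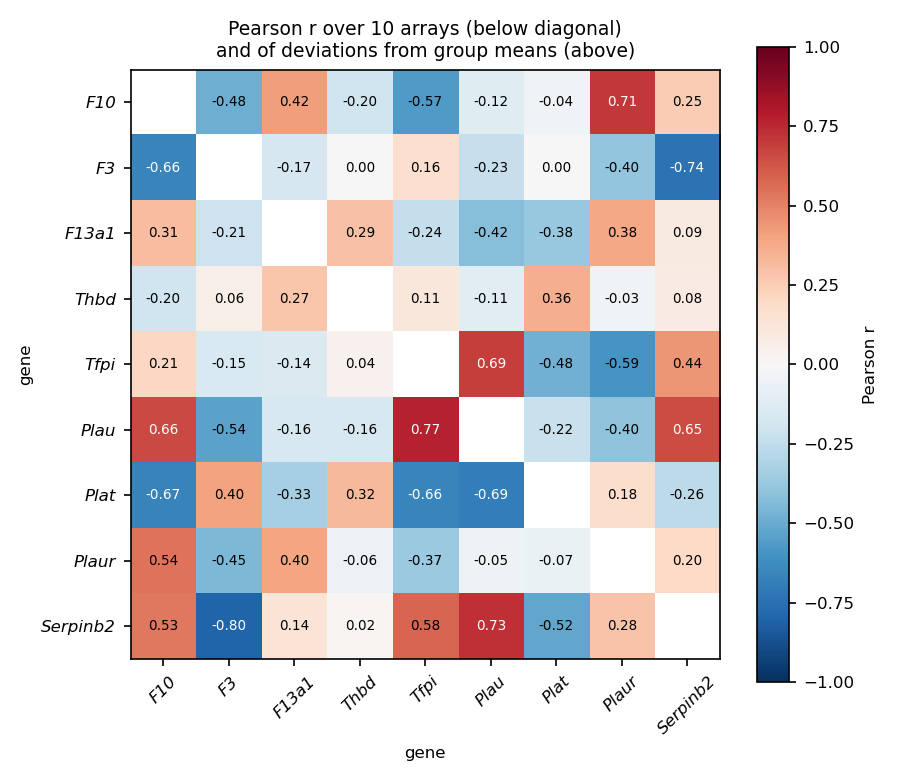
Pearson r between the 9 genes over 10 arrays (below the diagonal) and of deviations from group means (above). F10 and Plau stand at 0.66 below and -0.12 above the diagonal, and F3 and Serpinb2 at -0.80 and -0.74.

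The genes most like F10 and Plau over the 10 arrays were taken from 6743 genes with 10 distinct values, as a description. For F10 they were Srpk2 (r = 0.94), Cdca3 (0.93), Tfdp1 (0.93), Prtn3 (0.93) and P2ry1 (0.92). For Plau they were Klk8 (r = 0.93), Clec5a (0.93), Rnaset2a (0.93), Thoc2 (0.93) and Ms4a3 (0.93). The g of these 10 genes lay between -2.58 and -1.66, a side that their choice by likeness to F10 and Plau fixes. None of them is a member or stands in the pathway lists. Only 20 of the 42 pathway genes were among the genes compared, and nothing is read from this absence.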

How the data were processed

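Biotin-labelled cRNA from 100 ng of total RNA was hybridised to 3' arrays, per the labels' protocols. The deposited values are named scores, since the authors' normalization is not given in the sources used here; they worked in R 3.2.1, per the submitters' processing notes. Groups and replicate numbers come from the titles. The platform annotation named 1 gene for 34202 of 39993 probe sets, several for 931 and none for 4860, and 1 probe set stood for each of 18128 genes. limma 3.58.1 under R 4.3.3 fitted the scores as deposited (lmFit, then eBayes; two-sided), with Benjamini-Hochberg adjustment over 18038 genes (90 had no spread within groups) and a threshold of 0.05. No filter on low values was set. The interval of g comes from the noncentral t distribution. Python 3.11.15, numpy 2.4.6, scipy 1.17.1, pandas 2.3.3 and matplotlib 3.10.9 were used. Correlations used 100000 permutations, or all permutations within groups. limma was tested on simulated data. Named genes are the members, the 3 of lowest p in each pathway list (the remark on Plg was added after its values were seen) and the 5 most like F10 and Plau. The members and lists were chosen with earlier results of these data known. Alternatives were a replicate block, filters on level and distinct values, quantile normalization, median centring, trended and robust eBayes, array weights, other probe set choices and left-out arrays.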

Additional observations from a re-analysis of the deposited data

Results flagged for a closer look

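The 48 groups of 5 arrays examined were those of the members and the 3 genes of lowest p in each pathway list, in each treatment. Of these, 5 held an array far from the other 4, by Dixon's ratio of the gap to the whole range (critical value 0.710). Chance gives about 1 in 20 for unrounded normal values. Groups such as those of F12 and Plau hold only a few steps, so 5 of 48 cannot be set against that rate. Vehicle replicate 5 was the highest vehicle array of Plau (7 steps, ratio 0.75), and the g of Plau was -2.63 without it. Vehicle replicate 3 was the lowest vehicle array of Kng1 (0 steps, ratio 0.712). Maslinic acid replicate 2 was the highest treated array of F12 (2 steps, ratio 1.0, the other 4 being equal at 1 step). Maslinic acid replicate 3 was the highest treated array of Anxa5 (1142 steps, ratio 0.718) and the lowest of F2rl3 (0 steps, ratio 0.723).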

How the results depend on the processing

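Over 20 alternatives, the 7 members other than F10 and Plau had 0 genes past an adjusted p of 0.05 each time, and the 36 pairs had 0 with Spearman's rho, without vehicle replicates 3 and 5 and for group deviations. Of all genes 0 passed in 19 alternatives and 1 with trended and robust eBayes, the clone-named BC016579. For equal replicate numbers, the r of deviations from group means over 6743 genes was of mixed sign. It was 0.35, -0.39, -0.18, 0.34 and -0.02 for numbers 1 to 5. Unlike numbers were not compared, so these values cannot decide whether the numbers pair the mice. With the replicate number as a block 0 genes passed, F10 was at -2.26, Plau at -1.52 and Plat at 1.45, and 0 pathway genes had an unadjusted p under 0.05. That pathway count, 1 with all arrays, was also 0 with array weights and without vehicle replicates 3 and 5, 2 with centred arrays (Lrp1 and Procr), and 0 to 2 without single arrays. It was 0 without vehicle replicate 3 or 5 or maslinic acid replicate 1, 3 or 4, and 2 without vehicle replicate 4 (A2m and Procr). The 1 gene was Anxa5 without vehicle replicate 2 and A2m without maslinic acid replicate 2. Over the 18128 genes fitted, those of no measured variation included, the share with such a p ran from 0.943% (centred) to 11.7% (without vehicle replicate 4), with 8.56% for all arrays. Quantile normalization and centring moved F10 to -1.42 and -0.43 and Plau to -0.57 and -0.20. Plau was at -0.44 when the probe set of most distinct values was taken and -1.08 for the mean of its probe sets. Thbd turned to -0.92 after quantile normalization, -0.18 when centred, -0.20 with array weights and -0.057 without vehicle replicates 3 and 5, and ran from -0.24 to 0.50 without single arrays. F13a1 ran from -0.82 to 0.21 without single arrays. Rescaling acts on all genes of an array together, and the median gene had an SD of only 8.8 steps over the arrays. A higher mean was held by 30.7% of all genes after quantile normalization and 7.29% when centred, against 48.1% as deposited. Beyond that, the cause of these moves was not tested. Plau, F3 and Plat fall below the median level of the 18128 genes, though Plat (7.11) lies above the probe set median of 6.74. Plau and Plaur have fewer than 10 distinct values. These genes have no value under the filter concerned. Rounding to 6 decimals limits Plau and the pathway genes of few values.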
